A study of Mus musculus with 6 samples.

Results

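The 10 genes described here belong to the ATF4 arm of the integrated stress response and to the serine synthesis route that it feeds: Atf4, Ddit3, Trib3, Ddit4, Sesn2, Chac1, Asns, Phgdh, Psat1 and Shmt2. They were chosen by name, and all 10 were found by symbol among the 18182 genes of the deposited tables. Lewis lung carcinoma (LLC), a transplantable lung cancer line of C57BL/6 mice, was used in a form marked with red fluorescent protein (LLC-RFP). Wild type C57BL/6 mice received LLC-RFP alone or LLC-RFP together with bone marrow-derived mesenchymal stem cells (BMSCs) under the skin, and red fluorescent cells were sorted from the primary tumours for RNA sequencing. Each group, LLC alone and LLC with BMSCs, has 3 libraries. The mice of both groups carried the tumour line in a host with its own stroma and immune cells, and the sort on the fluorescent protein is the sole gate that is stated. An age and sex are given for the animals of the study's growth experiment and not for these libraries. Whether each library came from a separate mouse, or from pooled tumours, is not given in the sources used here, so that p values measure the spread between these libraries, which may be technical.

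In the integrated stress response, kinases that sense viral RNA, unfolded protein, amino acid shortage or heme shortage phosphorylate the translation factor eIF2alpha. General translation then slows, while the mRNA of Atf4 is translated more. ATF4 protein switches on genes for amino acid synthesis and transport, and together with CHOP, the product of Ddit3, genes that end the response or lead to cell death. RNA sequencing reads the level of the Atf4 message, not its translation.

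All 10 genes fell in LLC with BMSCs. Their log2 fold changes (LLC with BMSCs minus LLC alone) ran from -3.10 for Ddit3 to -0.35 for Psat1, with a median of -1.01, while the median of the 13353 genes tested was 0.012. Ddit3, Chac1 and Trib3 fell most. Atf4 itself (-0.71), Shmt2 (-0.57) and Psat1 fell least, and Sesn2, Phgdh, Ddit4 and Asns lay between. In edgeR's quasi-likelihood test with Benjamini-Hochberg adjustment over all tested genes, the adjusted p values of the 10 genes lay between 3.29e-07 and 0.00129. The background was broad: 31.3% of the tested genes were called lower and 31.5% higher at an adjusted p under 0.05. A log2 fold change of -1 or below with an adjusted p under 0.05 was found for 7.17% of the tested genes and for 5 of the 10 genes (Ddit3, Chac1, Trib3, Sesn2 and Phgdh). At -2 or below the share was 2.28%, and 2 of the 10 genes, Ddit3 and Chac1, were there. When the adjusted p had also to be under 0.001, the share at -1 or below was 5.41%, and 5 of the 10 genes passed.

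**Figure D1:**
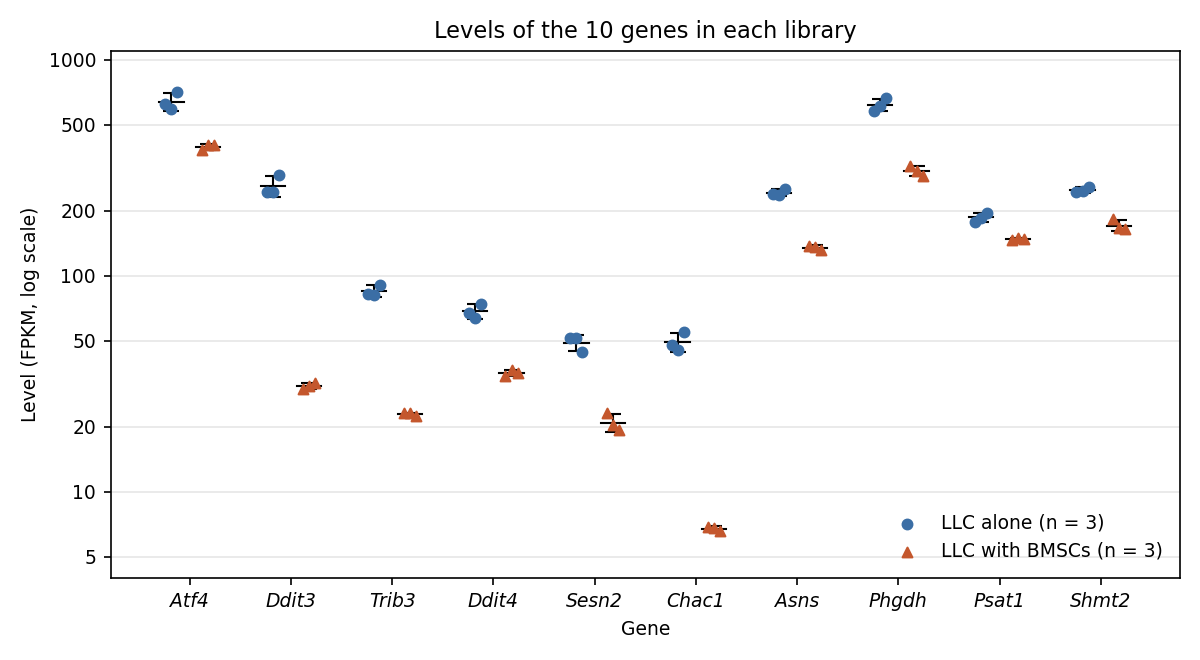
Level of each of the 10 genes in FPKM (a level per transcript length and library size, log axis) in LLC alone (circles, 3 libraries) and in LLC with BMSCs (triangles, 3 libraries). Horizontal lines are means and error bars are SD. The groups do not overlap for any of the 10 genes, and the gap is widest for Ddit3 and Chac1.

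Library totals on genes ranged from 33476347 to 46189113 estimated counts, and the 10 genes held between 437 and 55015 estimated counts each in a library. Between replicates edgeR put the biological coefficient of variation at 9.92%. A trend over transcript length ran through the libraries. Relative to the average library, LLC alone replicate 3 had a median log2 difference of 0.31 over the 2671 shortest genes tested and of -0.37 over the 2671 longest, while the other 5 libraries stayed within -0.19 to 0.18. The median log2 fold change between the groups was -0.28 over the shortest 2671 genes and 0.26 over the longest. Each of the 10 genes lies in the shorter part of this range, from Ddit3, which is longer than 6.04% of tested genes, to Sesn2, which is longer than 45.3%. For this reason each fold change of the 10 genes is also given with the trend of the libraries over length removed. Fold changes of other genes keep the trend unless stated, so that rises of long genes and falls of short genes may be overstated. Krt8, a keratin of simple epithelia, measured 90.3 to 113 FPKM in the 6 libraries, while the epithelial markers Epcam and Cdh1 and the lung markers Nkx2-1 and Sftpc stood at 0.06 FPKM or less in each, so that these messages do not mark the sorted cells as lung epithelium. Of the 10 lung carcinoma markers searched, Krt18 and Napsa also passed the filter on low counts.

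Among the transcription factors, Atf4, the leucine zipper factor at the centre of the response, measured 621.67, 588.23 and 709.02 FPKM in LLC alone replicates 1 to 3. In LLC with BMSCs replicates 1 to 3 it stood at 382.16, 403.25 and 401.18 FPKM. The lowest library of LLC alone lay above the highest of LLC with BMSCs, and LLC alone replicate 3 was the highest of all. Its mean was 639.6 ± 62.4 FPKM in LLC alone and 395.5 ± 11.6 with BMSCs (SD, n = 3 each), and by normalized counts it was 1.64-fold lower. Atf4 thus had a log2 fold change of -0.71 with an SE of 0.073 (edgeR, adjusted p = 0.000105), and -0.55 with the length trend removed. The authors' tables divide Atf4 between its annotated transcripts NM_009716, at 395 ± 14.4 and 245 ± 6.52 FPKM, and NM_001287180, at 244 ± 76.8 and 150.5 ± 10.6 FPKM (LLC alone and LLC with BMSCs, n = 3 each). In LLC alone the second of these varied between libraries, from 30.7% of the Atf4 level in replicate 2 to 46.5% in replicate 3.

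Ddit3 encodes CHOP, a factor that ATF4 induces and that favours death of stressed cells. Its level in LLC alone was 243.89, 243.77 and 293.91 FPKM. With BMSCs it was 29.79, 30.91 and 31.76 FPKM. The 3 libraries with BMSCs lay close together and far below those of LLC alone, of which replicate 3 was the highest. On average Ddit3 went from 260.5 ± 28.9 to 30.8 ± 0.988 FPKM (SD, n = 3 each), 8.59-fold lower with BMSCs, and 11.6% of the level in LLC alone was left. The log2 fold change was -3.10 (SE 0.094, edgeR adjusted p = 3.29e-07) and -2.78 without the length trend. Nearly all of the signal was assigned to the transcript NM_007837, at 242 ± 23.9 FPKM in LLC alone and 28.1 ± 1.70 with BMSCs. Exons of Mars, which encodes methionyl-tRNA synthetase, overlap those of Ddit3 on the opposite strand in the GENCODE annotation of GRCm38, and whether reads were counted by strand is not stated. Mars was not called, with 54.41 to 58.13 FPKM in LLC alone and 61.28 to 64.49 with BMSCs (log2 fold change 0.15, SE 0.055, edgeR adjusted p = 0.0503).

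Of the genes that restrain growth or feed back on the response, Trib3 encodes a pseudokinase that binds ATF4 and CHOP and dampens their activity. It measured 82.3, 81.71 and 90.95 FPKM in LLC alone. The values with BMSCs were 23.12, 23.06 and 22.54 FPKM. The groups were far apart, and the spread with BMSCs was under 1 FPKM. Trib3 was 3.76-fold lower with BMSCs, at 85.0 ± 5.17 against 22.9 ± 0.319 FPKM (SD, n = 3 each). Its log2 fold change was -1.91 (SE 0.067, edgeR adjusted p = 5.82e-07), and -1.81 with the length trend removed.

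Ddit4, also known as REDD1, inhibits the growth kinase complex mTORC1 in stress and in low oxygen. Its level was 67.43, 63.83 and 74.09 FPKM in LLC alone. It fell to 34.32, 36.55 and 35.34 FPKM with BMSCs. The groups did not overlap. The level with BMSCs was 1.96-fold lower, from 68.5 ± 5.21 to 35.4 ± 1.12 FPKM (SD, n = 3 each), with a log2 fold change of -0.97 (SE 0.073, edgeR adjusted p = 2.24e-05) and -0.81 without the length trend.

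Sesn2, which encodes sestrin 2, a leucine-sensing protein that holds mTORC1 back, differed from the others in its pattern within LLC alone. It measured 51.78, 51.25 and 44.26 FPKM there, so that replicate 3 was the lowest, whereas replicate 3 was the highest in 9 of the 10 genes. Sesn2 has the longest transcript of the 10. With BMSCs its values were 23.2, 20.31 and 19.29 FPKM, all below LLC alone. The mean fell from 49.1 ± 4.20 to 20.9 ± 2.03 FPKM (SD, n = 3 each), 2.38-fold lower. The log2 fold change of -1.25 (SE 0.094, edgeR adjusted p = 2.37e-05) was hardly altered by removal of the length trend, at -1.23.

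Chac1 encodes an enzyme that breaks down glutathione and is a known target of ATF4. Its upstream sequence is shown here because, among the 10 genes, only Chac1 and Asns matched the core of the composite site for C/EBP and ATF factors within 250 bases before the RefSeq start of the gene. The motif was searched as TGATGNAA on both strands, and it was found in 3.45% of the 32851 promoter windows of RefSeq. For Trib3 the bases just after the start of the window were found in no GENCODE transcript of the gene. The place of its window is thus in doubt, and the lack of a match there is not certain. In the stretch of Chac1 that comes before any annotated exon, chr2:119350992-119351228 on the plus strand of GRCm38.p6, the capitals mark the match, which lies 193 to 186 bases before the start and reads on the opposite strand:

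Chac1: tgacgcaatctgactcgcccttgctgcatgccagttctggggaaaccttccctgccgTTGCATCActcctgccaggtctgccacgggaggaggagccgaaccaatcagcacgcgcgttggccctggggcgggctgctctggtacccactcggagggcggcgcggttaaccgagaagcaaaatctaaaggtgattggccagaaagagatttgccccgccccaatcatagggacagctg

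In Asns the match lies 23 to 16 bases before the RefSeq start, within an exon of Asns in GENCODE, on the minus strand at chr6:7693214-7693243 of GRCm38.p6, and 30 bases round it are given with the match in capitals:

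Asns: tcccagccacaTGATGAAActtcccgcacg

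For Atf4 the whole window of 250 bases, chr15:80254934-80255183 on the plus strand of GRCm38.p6, lies before any annotated exon. It is shown as the window of the factor's own gene and holds no match to TGATGNAA:

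Atf4: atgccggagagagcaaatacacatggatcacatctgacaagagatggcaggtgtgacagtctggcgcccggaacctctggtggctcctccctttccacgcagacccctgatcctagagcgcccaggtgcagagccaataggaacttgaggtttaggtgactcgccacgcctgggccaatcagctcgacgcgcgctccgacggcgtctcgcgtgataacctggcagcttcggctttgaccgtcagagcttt

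The full cAMP response element TGACGTCA, present in 1.55% of windows, and the endoplasmic reticulum stress element (a CCAAT box followed at a fixed distance by CCACG), present in 0.113%, were found in none of the windows of the 10 genes. For Trib3 this holds only for a window whose place is in doubt. A match is a description of the sequence, and no binding was measured.

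Chac1 itself measured 47.77, 45.54 and 54.78 FPKM in LLC alone. With BMSCs it stood at 6.91, 6.77 and 6.6 FPKM, the lowest level of the 10 genes. No library with BMSCs came near the range of LLC alone. The mean was 49.4 ± 4.82 FPKM in LLC alone and 6.76 ± 0.155 with BMSCs (SD, n = 3 each), 7.41-fold lower, with a log2 fold change of -2.89 (SE 0.087, edgeR adjusted p = 3.29e-07) and -2.71 with the length trend removed. Ordered from the largest fall, and leaving out genes whose mean was under 100 normalized counts, Ddit3 took place 36, Chac1 place 40 and Trib3 place 104.

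Asns encodes asparagine synthetase, which makes asparagine from aspartate and glutamine. It measured 237.92, 237.06 and 252.1 FPKM in LLC alone. In LLC with BMSCs it measured 137.86, 135.99 and 131.01 FPKM. Both groups were tight and lay apart. The level was 1.82-fold lower with BMSCs, at 242 ± 8.45 against 135 ± 3.54 FPKM (SD, n = 3 each). On the log2 scale Asns changed by -0.87 (SE 0.058, edgeR adjusted p = 1.31e-05), and by -0.75 without the length trend.

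The serine route was followed from its first enzyme. Phgdh encodes phosphoglycerate dehydrogenase, which takes a glycolytic intermediate into serine synthesis. It was the most abundant of the 10 genes after Atf4, with 581.61, 612.52 and 661.67 FPKM in LLC alone. With BMSCs it measured 321, 305.26 and 289.98 FPKM. All 3 libraries with BMSCs were far under the lowest library of LLC alone. Phgdh was 2.05-fold lower, at 619 ± 40.4 against 305 ± 15.5 FPKM (SD, n = 3 each), with a log2 fold change of -1.04 (SE 0.073, edgeR adjusted p = 1.59e-05) and -0.91 without the length trend. Its counts were fractional in 5 of the 6 libraries, as happens where reads are divided among loci, while the counts of the other 9 genes were whole in every library.

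Psat1, phosphoserine aminotransferase, carries out the next step and changed least of the 10 genes. Its level was 177.98, 184.37 and 195.98 FPKM in LLC alone. With BMSCs it was 146.6, 149.7 and 147.21 FPKM. The groups still did not overlap. The fall was 1.28-fold, from 186 ± 9.12 to 148 ± 1.64 FPKM (SD, n = 3 each), and the log2 fold change was -0.35 (SE 0.059, edgeR adjusted p = 0.00129), or -0.27 without the length trend.

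Shmt2 encodes the mitochondrial enzyme that turns serine into glycine and passes a carbon unit to folate. It measured 245.36, 245.88 and 258.52 FPKM in LLC alone. Its values with BMSCs were 182.27, 166.14 and 163.91 FPKM, of which replicate 1 was the highest. The groups did not overlap. The mean fell 1.48-fold, from 249.9 ± 7.45 to 170.8 ± 10.02 FPKM (SD, n = 3 each), with a log2 fold change of -0.57 (SE 0.066, edgeR adjusted p = 0.000198) and -0.50 without the length trend. Its main transcript NM_028230 and the minor NM_001252316 were both lower, at 223 ± 6.95 against 149 ± 10.1 FPKM and at 27.1 ± 0.660 against 21.9 ± 1.10 FPKM. Exons of Ndufa4l2 overlap Shmt2 on the opposite strand in GENCODE, and that gene stood at 0.61 FPKM or less in each library.

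For each of the 10 genes every library with BMSCs lay below every library of LLC alone, a pattern shown by 33.7% of the tested genes. An exact permutation test on FPKM gave a two-sided p of 0.1 for each, the smallest that 3 libraries against 3 allow. Together the 10 genes took 0.421% ± 0.0234 of the counts in LLC alone and 0.230% ± 0.00503 in LLC with BMSCs (SD, n = 3 each). In bulk samples of sorted cells, fewer cells with a high level and a lower level per cell cannot be told apart. In 17 other settings, which leave out each library in turn, change the tool, scaling or filter, remove the length trend, block by replicate number or sum the closest replicates, the genes were called lower in 170 of 170 cases. The largest adjusted p among these was 0.0259, for Psat1 with the closest replicates summed in edgeR.

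**Figure D2:**
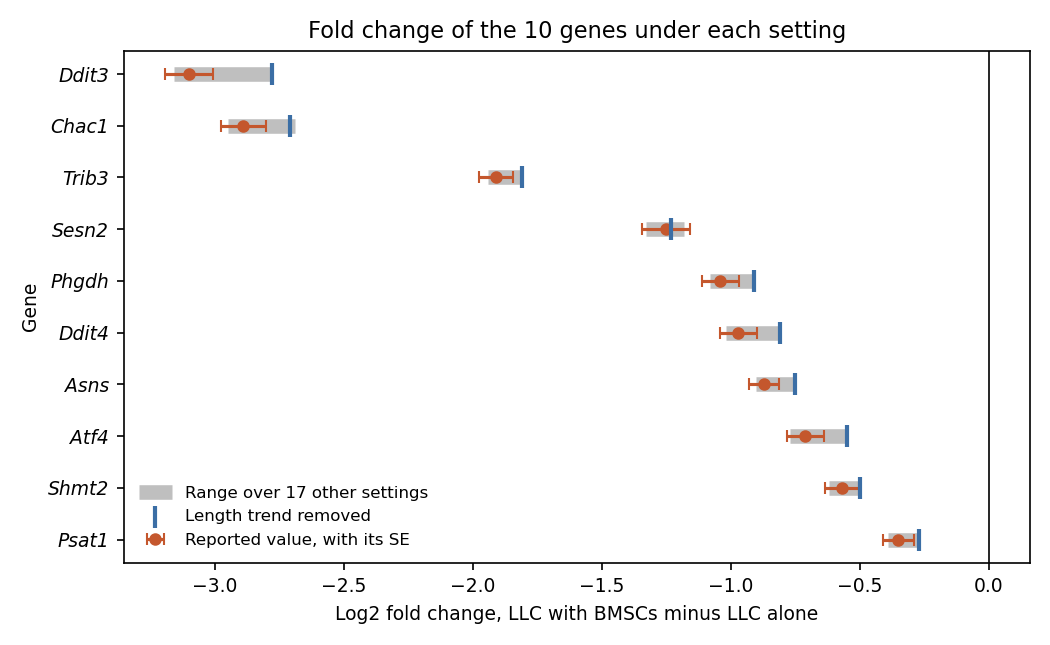
Log2 fold change of each of the 10 genes, LLC with BMSCs minus LLC alone, from edgeR (points with SE), with the range over 17 other settings (grey bars) and the value with the length trend of the libraries removed (blue ticks). All values lie below 0, and removing the length trend gave a smaller fall for each gene.

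The order of levels changed between the groups. In LLC alone, by mean FPKM, it ran Atf4, Phgdh, Ddit3, Shmt2, Asns, Psat1, Trib3, Ddit4, Chac1 and Sesn2. The ranges of Atf4 and Phgdh overlapped, as did those of Ddit3 and Shmt2, of Shmt2 and Asns, and of Chac1 and Sesn2. In LLC with BMSCs the order was Atf4, Phgdh, Shmt2, Psat1, Asns, Ddit4, Ddit3, Trib3, Sesn2 and Chac1, in which the ranges of Trib3 and Sesn2 overlapped. Ddit3 thus stood with the enzymes in LLC alone and below all 4 of them with BMSCs.

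Whether the genes fell in proportion to Atf4 was examined by dividing each level by that of Atf4 in the same library. Ddit3 measured 0.407 ± 0.0128 of the Atf4 level in LLC alone and 0.0779 ± 0.00126 with BMSCs (SD, n = 3 each). Chac1 went from 0.0772 to 0.0171 and Trib3 from 0.133 to 0.0580. For these genes, and by smaller steps for Ddit4 (0.107 to 0.0895), Sesn2 (0.0776 to 0.0531) and Phgdh (0.970 to 0.773), every ratio with BMSCs lay below every ratio in LLC alone. Psat1 went the other way, from 0.292 to 0.374 of Atf4. The ratios of Asns and Shmt2 overlapped between the groups, at 0.380 against 0.342 and at 0.392 against 0.433. An exact permutation test gave 0.1, the smallest possible two-sided p, for the genes without overlap, 0.2 for Asns and 0.3 for Shmt2. How many of all tested genes have a ratio to Atf4 without overlap was not computed. Whether the lack of overlap is unusual therefore cannot be told.

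**Figure D3:**
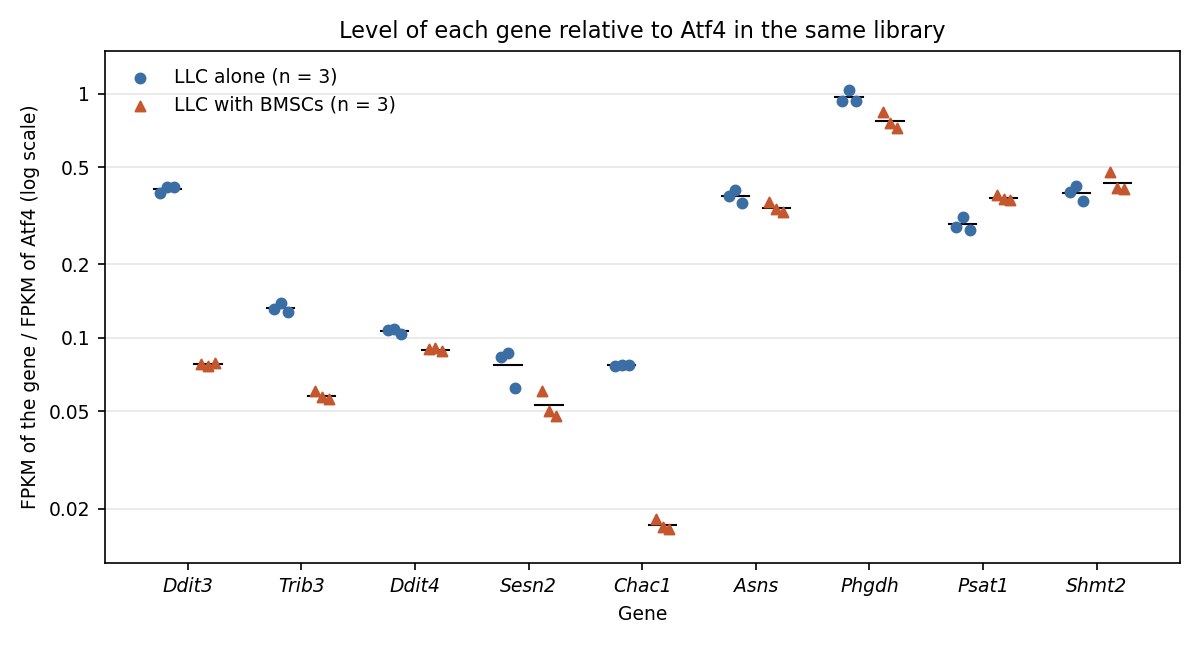
FPKM of each of the other 9 genes divided by the FPKM of Atf4 in the same library (log axis), for LLC alone (circles, 3 libraries) and LLC with BMSCs (triangles, 3 libraries), with the mean as a line. Ddit3, Trib3 and Chac1 lie far lower with BMSCs, Psat1 lies higher, and Asns and Shmt2 overlap.

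The genes whose changes over the 6 libraries were nearest in size to those of Atf4 were on none of the lists used here. By the root mean square difference of log2 normalized counts, each centred on its own mean, the nearest of 10594 genes were Adh5 (0.022), Pgrmc1 (0.032), and Fam50a, Utp11l and Acp6 (0.033 each). Adh5 encodes an alcohol dehydrogenase that also handles formaldehyde, and it measured 158 to 186 FPKM in LLC alone and 102 to 107 with BMSCs. Among the 10 genes the nearest to Atf4 was Asns, at place 441, followed by Shmt2 at 611 and Ddit4 at 879. Chac1 and Ddit3 stood near the end, at places 10284 and 10357. The measure is not scaled for the size of a change, so that a fold change near that of Atf4 places a gene high. The log2 fold changes of the 5 nearest genes were -0.73 to -0.70, beside -0.71 for Atf4. Ddit3 and Chac1 fell in the same direction as Atf4 but by more, and their places do not show that they varied apart from it.

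Upstream of Atf4, a list of 16 genes held the 4 eIF2alpha kinases, both Ppp1r15 phosphatase subunits, subunits of eIF2 and of its exchange factor eIF2B, and the regulators Nck1 and Impact. Of these, 6 were called higher, 5 lower and 5 neither, with a median log2 fold change of 0.11. Over all tested genes 31.5% were called higher and 31.3% lower, and the counts of this and the following lists stand beside those shares. Of the kinases, 3 were called higher and 0 lower. The lower calls were Ppp1r15a and, named here as members of the count, Eif2s1, Eif2b1, Eif2b3 and Nck1. Eif2ak2, which encodes the RNA-sensing kinase PKR, rose from 9.75, 10.36 and 6.84 to 32.04, 31.67 and 32.4 FPKM (log2 fold change 1.70, SE 0.093, edgeR adjusted p = 4.8e-06). The kinases of unfolded protein, Eif2ak3, and of amino acid shortage, Eif2ak4, rose by less, with log2 fold changes of 0.44 (SE 0.083) and 0.64 (SE 0.10). Impact, which inhibits the amino acid kinase, rose by 0.78. Eif2ak1, the heme-regulated kinase, was not called, at 0.13 (SE 0.057, edgeR adjusted p = 0.0703), and passed the threshold in 6 of the 17 other settings. Eif2b1, a subunit of the exchange factor that eIF2 needs, was at -0.64.

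Ppp1r15a, the ATF4-responsive subunit (GADD34) that brings a phosphatase to eIF2alpha, stood at 62.07, 62.72 and 66.09 FPKM in LLC alone. It fell to 23.44, 22.31 and 22.64 FPKM with BMSCs, with no overlap. Its log2 fold change was -1.50 (SE 0.059, edgeR adjusted p = 1.01e-06).

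Other known targets of ATF4 and CHOP moved mostly down. Of 25 genes, 23 were tested, and 18 were called lower and 2 higher, with a median of -1.0, the same with Fgf21, which was at or under 3 counts in each library with BMSCs, set to its bound. Atf3, a stress factor that acts beside CHOP, fell from 89.58, 93.42 and 102.23 to 11.08, 10.95 and 10.57 FPKM (log2 fold change -3.15, SE 0.075, edgeR adjusted p = 1.05e-07). Gdf15, a secreted stress hormone, fell from 35.8, 34.53 and 47.5 to 4.82, 4.78 and 4.56 FPKM, with a log2 fold change of -3.08 (SE 0.14). Singled out after their values were seen, Nupr1, Gadd45a and Atf5 gave -2.66, -2.69 and -2.24. Ero1a (listed as Ero1l), an oxidase of the endoplasmic reticulum that also responds to low oxygen, rose from between 74.39 and 79.04 to between 143.68 and 150.33 FPKM and had a log2 fold change of 0.93 (SE 0.054). The other higher call was Vldlr, which stood at 0.29 FPKM or less in every library and was named after its value was seen. Cebpb, Slc7a11 and Ndrg1 were not called.

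In the rest of serine, glycine and folate metabolism the calls were mixed: 6 of 19 tested genes were lower and 2 higher, with a median of -0.19. The number higher rose to 4 or 5 in 7 of the other settings, among them the one without LLC alone replicate 3. The number lower also rose in some settings, to 7 with DESeq2 and to 8 with the length trend removed. Psph, the phosphatase that completes serine synthesis after Psat1, was one of those that fell. It measured 106.61, 109.38 and 135.15 FPKM in LLC alone and 38.35, 42.02 and 42.2 with BMSCs, with a log2 fold change of -1.54 (SE 0.10, edgeR adjusted p = 1.24e-05). Psph fell by more than Phgdh (-1.04) and Psat1 (-0.35), and the differences between these steps were not tested. Mthfd2, the mitochondrial folate enzyme next to Shmt2, fell by 0.98 on the log2 scale (SE 0.059). Mthfd1l, which acts after Mthfd2 in mitochondria, rose by 0.43 (SE 0.064). Amt of the glycine cleavage system rose by 0.49 (SE 0.12), a call that was lost with the length trend removed, at 0.29.

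Ddit4 and Sesn2 both act on mTORC1, and 22 further genes of its amino acid and stress inputs were tested. Of these, 7 were called higher and 8 lower, with a median of -0.05. Both counts are near the shares over all tested genes, 31.5% higher and 31.3% lower. Castor1 and Castor2 (listed as Gatsl3 and Gatsl2), which sense arginine or resemble the sensor, had log2 fold changes of 1.03 and 1.39. Rheb, the small GTPase that activates mTORC1, fell from 158.66, 158.93 and 185.74 to 68.37, 74.98 and 73.74 FPKM (log2 fold change -1.23, SE 0.082, edgeR adjusted p = 1.21e-05), and Rragd, a GTPase of the amino acid branch, was at -1.13.

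In the unfolded protein response outside the ATF4 arm, 10 of 15 genes were called lower and 1 higher, with a median of -0.44. Herpud1 and Dnajb9, which help to clear misfolded protein from the endoplasmic reticulum, fell by 1.59 and 1.31 on the log2 scale. The higher call, Edem1, was small at 0.20 (SE 0.065, edgeR adjusted p = 0.0264), and with the length trend removed its value was -0.02.

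Sesn2 and Ddit4 are also known targets of p53, and other p53 targets gave 3 higher and 5 lower calls among 12 genes, with a median of -0.03, the same with Plk2, which was at or under 3 counts in each library of LLC alone, set to its bound. With so few genes these counts are not far from the shares of 31.5% higher and 31.3% lower over all tested genes. Cdkn1a, the cell cycle inhibitor p21, rose by 1.35 and Ccng1 by 0.52, while Eda2r was at -1.34 and Bbc3, which encodes the death factor PUMA, at -1.26. Genes of the response to low oxygen gave 9 higher and 1 lower calls among 12 genes, with a median of 1.01, led by Bnip3 (1.77) and Egln3 (1.66). Ddit4, which low oxygen also induces, was not on this list and fell. Any part of low oxygen or of p53 in the levels of Ddit4 and Sesn2 was not tested. The lower call in the list was Vegfa, at -0.17, which was not called in 6 of the 17 other settings, 4 of them without 1 library (LLC alone replicate 1, or LLC with BMSCs replicate 1, 2 or 3). Of 10 genes of proliferation, 5 were higher and 3 lower, with a median of 0.24. Mki67 and Top2a rose by 1.14 and 0.92, and the replication genes Mcm2 and Pcna were at -0.81 and -0.44. With the length trend removed, these 4 values were 0.82, 0.73, -0.85 and -0.19.

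**Figure D4:**
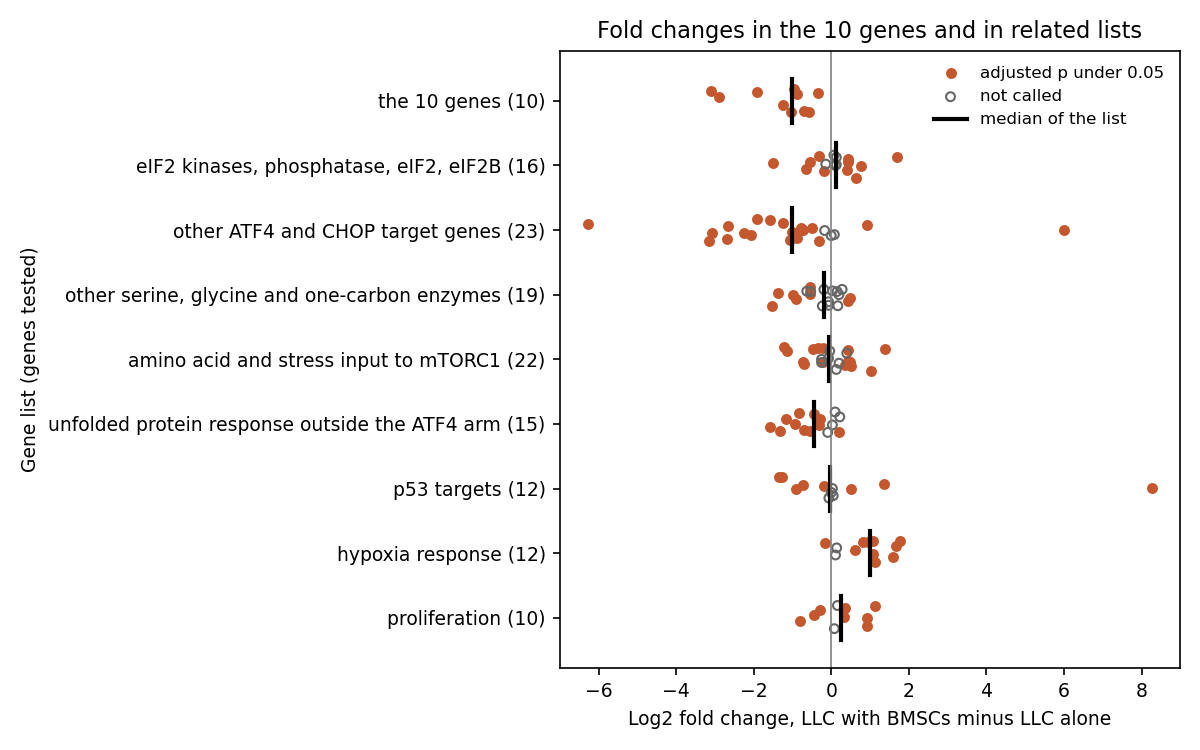
Log2 fold changes, LLC with BMSCs minus LLC alone, of the 10 genes and of the tested genes in 8 related lists. Filled points have an adjusted p under 0.05 in edgeR, open points were not called, and black lines are medians, which run from -1.01 for the 10 genes to 1.01 for the response to low oxygen.

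Markers of other cell types also differed between the groups. The summed level of 10 macrophage markers, all tested, was 24.3 to 29.2 CPM (counts scaled to the library total) in LLC alone and 39.5 to 41.6 CPM with BMSCs, with 8 called higher and 1 lower. Their median log2 fold change was 3.45, or 3.37 with markers at or under 3 counts in a group set to their bound. Most of the sum in either group came from Cd14 (not called, 0.07), Cd68 (lower, -0.89) and Lyz2 (higher, 0.58). Itgam went from 0.02 FPKM or less to between 1.14 and 1.19 FPKM, and Adgre1 was listed at 0 FPKM in each library of LLC alone. Ptprc, Adgre1, Mrc1, Itgam, Tyrobp and Fcer1g, under 10 counts in each library of LLC alone, passed the filter through the libraries with BMSCs. Their calls could hardly be other than higher. The 10 neutrophil markers summed to 0.893 to 1.23 CPM in LLC alone and 37.1 to 40.5 CPM with BMSCs. Mmp9, S100a9 and S100a8 made up most of the sum with BMSCs. All 7 neutrophil markers that were tested were called higher (median 5.12 on the log2 scale, the same with those at or under 3 counts in a group set to their bound). Of these, 5 were at or under 3 counts in each library of LLC alone. They too passed the filter through the libraries with BMSCs, so that a call could hardly be other than higher. Ly6g stood at 0.11 FPKM or less in each library and was not tested, and no value was found for Retnlg. The 10 mesenchymal stromal markers, which BMSCs could carry, summed to 271 to 326 CPM in LLC alone and 670 to 702 CPM with BMSCs, all 8 that were tested were called higher (median 1.40 on the log2 scale), and Thy1 stood at 0.03 FPKM or less in each library. Col3a1, a collagen at 36.77 to 43.62 FPKM in LLC alone and 98.96 to 101.72 FPKM with BMSCs, made up most of that sum. Of the stromal markers, Col1a1, Dcn and Lum were under 10 counts in each library of LLC alone and passed the filter through the libraries with BMSCs. Lymphocyte markers summed to 0.448 CPM or less in every library, and none passed the filter on low counts. Endothelial markers gave 0 higher and 1 lower among 4 tested, at 14.1 to 17.8 CPM and 13.3 to 14.4 CPM. Erythroid markers gave 3 higher and 1 lower among 5 tested, at 8.66 to 9.04 CPM and 11.1 to 12.0 CPM. The lung carcinoma markers, led by Krt8, gave 2 higher among 3 tested, at 160 to 182 CPM and 190 to 199 CPM. The part of other cell types in the fall of the 10 genes was not tested.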

How the data were processed

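RNA of sorted red fluorescent cells was sequenced from 6 tumour samples, 3 in each group, grouped by the sample titles. Per the submitters' processing notes, HISAT, StringTie, Cufflinks and GATK and the build mm8 are named, without roles or versions, and the strand setting of the counting is not given in the sources used here. Estimated counts, not normalized, were deposited by the authors for genes and transcripts of each library, with FPKM values, scaled to transcript length and library total. A further file repeats FPKM for the series, of which 3 columns could be matched to samples by name and equalled the single-library values, and 3 columns of per-sample values were not used. Promoter windows come from RefSeq on GRCm38.p6 and exon overlaps from GENCODE on the same build, and no coordinates of the authors' build were used.

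Before testing, the estimated counts were rounded. Differences were tested with edgeR 4.0.16 in R 4.3.3, using TMM scaling, its default filter on low counts (13353 of 18182 genes kept) and its quasi-likelihood test, with a threshold of 0.05 on the Benjamini-Hochberg adjusted p. The SE of a log2 fold change is its size over the root of edgeR's F statistic. Folds compare normalized counts, while levels are FPKM. On simulated counts of 13353 genes in which 200 were shifted by 1 on the log2 scale, edgeR recovered 168 with 12 false calls. The simulated libraries were independent and had no length trend and no close pairs of replicates. Their false calls therefore do not measure the error in these data. The depth of 33476347 to 46189113 counts places each of the 10 genes far above 3 counts.

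The 10 genes, the 8 related lists, the 7 lists of cell type markers and the alternatives were chosen with earlier results of these data known. Named genes are the 10 genes, the 4 eIF2alpha kinases, Ppp1r15a and Psph, the up to 2 largest rises and falls of each related list among called genes that average at least 100 normalized counts, and the 5 genes most like Atf4. Where others are named, the text says so or gives them as a count's members or markers. Alternatives were DESeq2 1.42.0, scaling without TMM or by the upper quartile, no filter or at least 10 counts in every library, limma 3.58.1 on log2(FPKM + 1) and log2(FPKM + 0.1) with a filter of 1 FPKM in 3 libraries, and on log2(FPKM + 1) without it, a replicate block, each library left out, the length trend removed by offsets, and the closest replicates summed (LLC alone 1 with 2, LLC with BMSCs 2 with 3). These pairs differed by more than sampling noise, with a median chi-square per gene of 1.95 and 1.68 times that expected. The other pairs lay much further apart, at 12.4 and 13.1 times in LLC alone and 4.84 and 4.94 times with BMSCs. In the close pairs 4 and 2 of the 10 genes differed beyond sampling noise. The libraries were kept as separate replicates, and whether those of a close pair are independent is not known.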

Additional observations from a re-analysis of the deposited data

How the results depend on the processing

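The 10 genes were called lower, and 0 higher, in each of the 17 other settings of the test. Under a stricter rule, an adjusted p under 0.001 with a change of at least 1 on the log2 scale, 5 of the 10 were lower, and over all genes 910 were higher and 723 lower in place of 4210 and 4183. Leaving out 1 library gave 3617 to 4736 higher and 3581 to 4539 lower calls. Under the stricter rule, which removes small changes by its construction, the related lists gave 1 higher and 1 lower (eIF2alpha), 1 and 10 (ATF4 and CHOP targets), 0 and 2 (serine and folate), 1 and 2 (mTORC1), 0 and 3 (unfolded protein response), 2 and 2 (p53), 6 and 0 (low oxygen), and 0 and 0 (proliferation). The 2 higher calls among ATF4 and CHOP targets became 1 with at least 10 counts in every library and with limma on filtered FPKM at either pseudocount, since Vldlr was then not among the genes tested. The 2 higher calls among serine and folate genes became 4 with DESeq2, with library size alone, with at least 10 counts in every library and with limma without a filter, and 5 with limma on filtered FPKM at either pseudocount, and ranged from 2 to 5 when a library was left out. The cause was not tested. In the unfolded protein response the single higher call, Edem1, became 0 with the replicate block and with the closest replicates summed, 0 to 2 when a library was left out, and 2 with the length trend removed, where Edem1 itself reversed to -0.02. The single lower call of the low oxygen list, Vegfa, became 0 with the replicate block, with the closest replicates summed and at the lowest when a library was left out (0 to 1).

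The labels do not tie the replicate numbers of the 2 groups to each other. The deviations of same-numbered libraries correlated at 0.08, -0.11 and 0.06, and those of different-numbered libraries at -0.16 to 0.15. A shared day or batch was not tested. With the replicate block, 4161 genes were higher and 4058 lower, and 10 of the 10 genes stayed lower. Of 799 values of 47 named genes under the alternatives, 780 kept their direction and side of the threshold, 12 lost the call, 6 gained it (all Eif2ak1) and 1 reversed. With 3 libraries a group an exact test cannot pass the threshold, so that calls rest on the model's p values. The unstated strand setting limits the counts of Ddit3 and Shmt2, which overlap other genes in an annotation of GRCm38, while the processing notes name mm8.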
